A study of Homo sapiens
Mus musculus and Homo sapiens with 21 samples.

Results

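The host side of brain metastasis was examined in the forebrain, by comparing mouse transcripts of forebrain that carried human lung cancer metastases with those of forebrain without tumour. The comparison used 7 of the 21 libraries of the series, chosen by their labels: 3 of tumour-bearing forebrain and 4 of tumour-free forebrain. All mice were athymic nu/nu animals, which have no thymus and so lack mature T cells, and were 5 to 6 weeks old at injection. Tumours grew from H2030-BrM3, a brain-seeking derivative of the human lung adenocarcinoma line H2030, after injection of cells into the heart. Tumour tissue was dissected together with the surrounding stroma, so the mouse RNA came from host tissue in and around the metastases. The labels do not say which parts of the forebrain each dissection held, whether tumour-free mice had been injected, or whether libraries came from separate animals. P values therefore measure a spread between libraries that may be partly technical. That spread was estimated over the forebrain and hindbrain libraries together, not over the 7 forebrain libraries alone. The other libraries were of hindbrain with tumour (3) and without (4), subcutaneous tumours (4) and cells in monolayer (3), and the stated purpose was to profile the cancer cells in these environments and the host stroma of tumour-bearing brain.

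Brain tissue answers damage or an invading tumour chiefly through its glia. Microglia, the resident macrophages of the brain, survey the tissue through surface receptors and, when activated, take up debris and release complement, cytokines and proteases. Astrocytes feed neurons, clear glutamate and seal vessels, and when reactive they build up intermediate filaments such as GFAP. Interferons released in such tissue induce a shared set of antiviral and antigen-presenting genes in many cell types. Forebrain itself is a mixture of territories (cortex, hippocampus, striatum, thalamus and hypothalamus), each with neurons that carry their own transmitters and transcription factors.

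Levels below are RPKM (reads scaled to transcript length and sequencing depth) of mouse genes, rescaled so that each library sums to 1000000. Folds and log2 changes are on the scale of log2(level + 1), which understates changes of low genes, and a gene was called where limma's adjusted p was below 0.05. Tumour-free forebrain libraries held 17746944 to 20432653 reads assigned to mouse genes, and tumour-bearing ones 54449708 to 71915570, so that depth and tumour cannot be told apart. Human reads made up 4.83 to 7.12% of tumour-bearing libraries and 0.0177 to 0.0314% of tumour-free ones. Markers matched the forebrain label: Emx1, a transcription factor gene of the cortex, was at 10.2 to 13.7 in tumour-free and 7.11 to 10.1 in tumour-bearing libraries. Markers of spinal cord, medulla and cerebellum (Hoxa5, Hoxb5, Gabra6, Pcp2) were at most 0.419 in any of the 7 libraries. The T cell gene Cd3d was listed at 0 in all 7. Choroid plexus transcripts were abundant in tumour-bearing replicate 1 and scarce in replicates 2 and 3, with values given below. In bulk tissue, fewer cells of a type and less RNA per cell cannot be told apart.

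Of 15777 mouse genes tested, 4793 (30.4%) were called, 2265 higher (14.4%) and 2528 lower (16.0%) with tumour. At least a 2-fold change was less common: 322 genes (2.04%) were called with one, 276 higher (1.75%) and 46 lower (0.292%). The median log2 change over all genes tested was -0.03. Leaving out tumour-bearing replicate 2 lowered the calls to 2353, and the groups did not overlap in 5979 genes (37.9%). Among genes whose groups did not overlap and whose higher group averaged 5 or more, the 12 largest increases were Ccl12, Lag3, Ly86, C4b, Gfap, Malat1, Fyb, Itgax, Ifi44, Itgam, Cd180 and Aspg. By the same limits the 12 largest decreases were Pmch, Hcrt, Avp, Shox2, Capn11, Slc17a6, Rab37, Oxt, Cbln1, Trh, Th and Epn3.

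**Figure D1:**
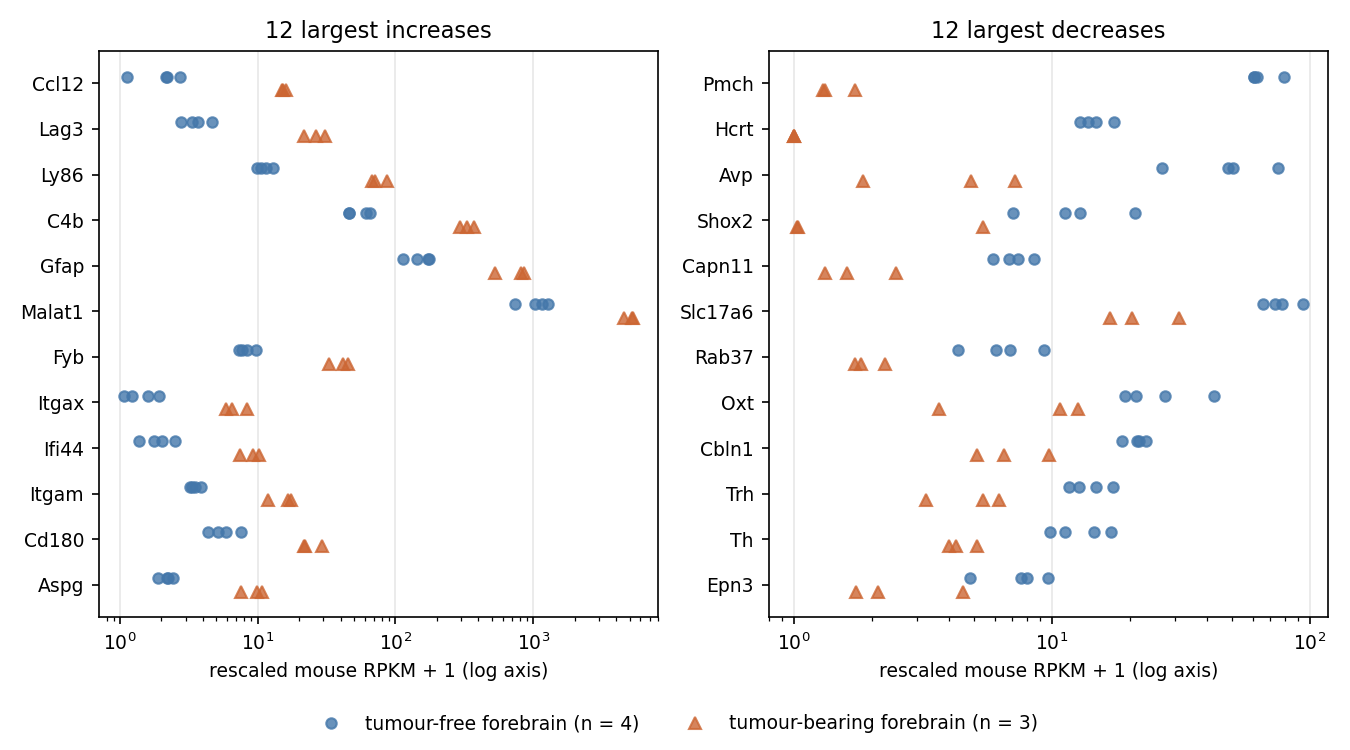
Level (rescaled RPKM + 1, log axis) of the 12 genes with the largest increase (left) and the largest decrease (right) in each of the 4 tumour-free (circles) and 3 tumour-bearing (triangles) forebrain libraries. No gene shown overlaps between the groups, a condition for being shown, and Shox2 in tumour-bearing replicate 1 lies far above the other 2 triangles.

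Microglial genes rose together. All 13 homeostatic microglia genes were called higher, with a median log2 change of 1.02. Fcrls, a microglial Fc-receptor-like gene, was at 3.70, 4.11, 4.58 and 3.35 without tumour and at 17.5, 22.5 and 13.4 with tumour. Its lowest tumour-bearing value was thus above every tumour-free one, a 3.75-fold rise (adjusted p = 7.72e-06). Tmem119, a surface marker of resident microglia, went from 28.7 ± 2.79 (SD, n = 4) to 60.5 ± 11.3 (SD, n = 3), a 2.05-fold rise. Csf1r, the receptor on which microglia depend for survival, rose 2.38-fold, the fractalkine receptor gene Cx3cr1 2.43-fold and the matrix-binding gene Olfml3 2.67-fold. P2ry12, the purine receptor that guides resting processes, rose 1.71-fold (adjusted p = 0.0076). Among the largest changes of all, Ly86, which binds a toll-like receptor relative, was at 9.59, 8.85, 11.9 and 10.5 without and 66.0, 85.7 and 70.4 with tumour (6.68-fold, adjusted p = 8.44e-08). Its partner Cd180 rose 4.31-fold and the adaptor gene Fyb 4.84-fold. In tumour-bearing replicate 3 each of Fcrls, Tmem119, Csf1r and Cx3cr1 was lower than in replicates 1 and 2.

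Genes of the disease-associated state of microglia were called higher in 16 of 22 cases, with none lower and a median log2 change of 0.58. Without tumour-bearing replicate 1 the count was 10. Cst7, an inhibitor of lysosomal proteases, gave 2 reads over the 4 tumour-free libraries and 588 over the 3 tumour-bearing ones. Its share of mouse reads was 120 times higher with tumour, with an exact 95% counting interval of 33.0 to 990 that covers counting error only. Itgax, the CD11c integrin gene, was at 0.913, 0.605, 0.0742 and 0.223 against 7.32, 4.90 and 5.47, with no overlap between the groups (adjusted p = 2.95e-06). Clec7a, a receptor for fungal glucans, rose 3.39-fold, and Trem2, a lipid-sensing receptor gene, rose 2.79-fold, from 11.2 ± 1.08 to 33.3 ± 6.46. Homeostatic genes and these activation genes were thus higher in the same 3 libraries. The summed level of the activation list overlapped between the groups (4602 to 5756 without tumour, 4973 to 6327 with tumour).

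Reactive astrocyte genes also rose. Of 13 pan-reactive astrocyte genes tested, 12 were called higher and none lower, with a median log2 change of 1.25. Gfap, the intermediate filament of reactive astrocytes, was at 113, 141, 170 and 173 without tumour and at 819, 861 and 529 with tumour. All 3 tumour-bearing values lay above the tumour-free ones, with replicate 3 the lowest, and the fit gave a 4.86-fold rise (log2 2.28 ± 0.25 SE, adjusted p = 3.93e-05). Aspg, an asparaginase gene, rose 4.28-fold (1.19 ± 0.232 against 8.44 ± 1.62). Lcn2, a secreted iron-carrier gene, rose 3.41-fold and Osmr, the oncostatin M receptor gene, also 3.41-fold. Timp1, a metalloprotease inhibitor gene, was at most 0.355 without tumour and at 1.53 to 2.42 with tumour. Of the sets called neurotoxic (A1) and protective (A2) in the literature, 4 of 11 and 3 of 9 genes were called higher and none lower. Ggta1, a galactosyltransferase gene of the A1 set, rose 3.10-fold and Cd14, a co-receptor for bacterial lipopolysaccharide in the A2 set, 2.09-fold.

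Homeostatic astrocyte genes were called higher in 7 of 18 cases and lower in none, with a median log2 change of 0.27 and 4 calls without tumour-bearing replicate 2. Aqp4, the water channel of astrocyte endfeet, was at 45.5, 42.9, 37.4 and 45.0 against 89.5, 96.8 and 63.4, so that the groups did not overlap (1.90-fold, adjusted p = 0.000231). Aldh1l1, a folate enzyme gene used as an astrocyte marker, rose 1.36-fold, the bicarbonate transporter gene Slc4a4 1.38-fold and the glutamate transporter gene Slc1a2 1.70-fold. The call for Slc1a2 was lost with quantile normalization. The gap junction gene Gja1 was at 108 ± 4.99 against 128 ± 21.1 and did not pass (0.0808 after adjustment).

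Interferon-induced genes were called higher in 23 of 24 type I response genes tested, with none lower and a median log2 change of 1.06. Ifi44, an interferon-induced gene, was at 1.53, 1.02, 0.379 and 0.759 without tumour and at 9.30, 8.21 and 6.44 with tumour (4.75-fold, adjusted p = 1.28e-05). The groups stood well apart. Trim30a, a regulator of innate signalling, rose 4.04-fold, Usp18, which removes ISG15 from proteins, 3.97-fold, and Ifi27l2a 3.70-fold. Of 15 genes used as interferon-gamma targets, 6 were called higher and none lower, with a median log2 change of 0.45. They included the chemokine gene Cxcl10 (0.315 ± 0.116 against 4.16 ± 0.660, 3.91-fold), the transcription factor gene Irf8 (3.07-fold), which microglia also express, and the GTPase genes Gbp3 (2.35-fold) and Irgm1 (1.97-fold).

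Antigen presentation depends on MHC molecules and the proteins that load them. MHC class I genes were called higher in 7 of 16 cases and lower in 1, with 4 higher without tumour-bearing replicate 2. B2m, the light chain shared by class I molecules, was at 103, 87.3, 73.0 and 89.0 against 167, 165 and 152, with no overlap (1.83-fold, adjusted p = 0.000444). The class I activator gene Nlrc5 rose 1.44-fold and the immunoproteasome subunit gene Psmb8 1.76-fold. Psmb10, another such subunit, was lower by 1.24-fold (adjusted p = 0.0465), a call lost in 11 of 21 alternatives. Of 7 MHC class II genes tested, 2 were called higher, none lower and 5 were not called. The 2 were the protease gene Ctss (67.5 ± 5.97 against 218 ± 19.8, 3.20-fold) and the peptide-loading gene H2-DMb1 (2.21-fold). The counts in this paragraph stand beside 14.4% called higher and 16.0% called lower over all genes. Reads of MHC genes can be split between near-identical copies, so their values are uncertain.

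Complement genes had the highest median of the 47 lists, a log2 change of 1.38, with 14 of 17 genes tested called higher and none lower. C4b, the complement C4 gene made by glia, was at 45.3, 45.1, 59.7 and 64.6 without tumour and at 369, 332 and 293 with tumour. Every tumour-bearing value was above every tumour-free one, a 6.13-fold rise (log2 2.62 ± 0.19 SE, adjusted p = 1.77e-06). Its near-identical neighbour C4a rose 3.95-fold, and reads of the 2 genes may have been exchanged in counting. C1qc, a chain of the C1q recognition protein, was at 29.0, 32.7, 29.2 and 31.6 against 150, 142 and 112 (4.27-fold). The complement receptor integrin gene Itgam rose 4.33-fold (2.50 ± 0.270 against 14.3 ± 2.94).

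Chemokine and cytokine genes were called higher in 12 of 16 cases tested and lower in 1. Ccl12, a ligand of the monocyte receptor CCR2, had the largest increase under the limits above: 1.72, 1.20, 0.128 and 1.15 without tumour against 15.1, 14.04 and 14.3 with tumour (7.93-fold, adjusted p = 1.49e-06). The tumour-bearing values lay close together and clear of the others. Il1b, the interleukin-1 beta gene, rose 3.09-fold, with values of 6.83, 4.15 and 2.40 in the 3 tumour-bearing libraries and at most 0.883 without tumour. Tgfb1, the transforming growth factor beta 1 gene, rose 2.30-fold. The single decrease was Il33, an alarmin gene of astrocytes and oligodendrocytes (49.9 ± 4.18 against 36.0 ± 4.70, 1.38-fold lower, adjusted p = 0.0137), a call lost without tumour-bearing replicate 1.

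STAT3 carries signals of the interleukin-6 family into the nucleus and is active in reactive astrocytes. Of 12 genes of its pathway and feedback tested, 8 were called higher and none lower. Stat3 itself was at 86.0, 88.9, 89.9 and 82.6 against 197, 186 and 159, groups that did not overlap (2.06-fold, adjusted p = 2.56e-06). Its feedback inhibitor Socs3 rose 3.43-fold (6.88 ± 0.542 against 26.7 ± 8.01) and the cofactor gene Bcl3 4.19-fold. Checkpoint and costimulatory genes were called higher in 6 of 11 cases and lower in none. Cd86, a costimulatory ligand of antigen-presenting cells, rose 3.07-fold, the galectin-9 gene Lgals9 2.96-fold, its receptor gene Havcr2 (TIM-3) 2.28-fold and the inhibitory ligand gene Vsir 1.84-fold. Lag3, an inhibitory receptor of lymphocytes that other brain cells can also express, was at 3.67, 2.32, 1.77 and 2.69 against 25.5, 29.7 and 20.8 (7.35-fold, adjusted p = 6.01e-07), while T cell markers were at or near 0.

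Most genes of the 4 lists of blood-derived cells were too low to test, and the counts below stand beside 14.4% called higher over all genes. Of 10 monocyte and border macrophage genes tested, 2 were called higher, the lysozyme gene Lyz2 (2.08-fold) and Plac8 (1.57-fold), and 1 lower, the integrin gene Itga4 (1.58-fold). The monocyte markers Ly6c2, which has a near-identical copy, (1.46 ± 0.291 against 1.90 ± 0.725) and Ccr2 (0.146 ± 0.0786 against 0.413 ± 0.165) did not pass. Only 4 of 11 neutrophil genes were high enough to test, and 1 was called, Csf3r, the G-CSF receptor gene, which rose 3.59-fold. The granule gene S100a9 was at 2.36 ± 1.17 against 2.50 ± 1.47. The neutrophil surface gene Ly6g was at most 0.204 in any library.

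Of 18 lymphocyte and NK cell genes, 2 could be tested and both were called higher. Cd4 rose 1.41-fold, a call lost in 6 of 21 alternatives, and the immunoglobulin heavy chain gene Ighm 1.43-fold. Markers that define lymphocytes stood at or near 0: Cd3e was at most 0.0530, Ncr1 at most 0.0987 and the B cell gene Cd79a at most 0.269. Of 3 dendritic cell genes tested, Clec10a was called higher (1.56-fold) and Flt3 lower (1.19-fold), calls lost in 4 and 10 alternatives.

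Genes of dividing cells were called higher in 20 of 28 cases tested and lower in none, with a median log2 change of 0.55. Top2a, a topoisomerase of replicating cells, was at 4.82, 3.22, 5.61 and 3.98 against 21.9, 18.7 and 14.2, with no overlap (3.56-fold, adjusted p = 3.59e-05). Mki67, which marks cycling cells, rose 2.69-fold (0.646 ± 0.0463 against 3.46 ± 0.724), and the mitotic genes Cdk1 and Bub1b both rose 2.43-fold.

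Several vessel genes rose. Of 17 endothelial and blood-brain barrier genes, 7 were called higher and none lower, with a median log2 change of 0.42. Kdr, the main VEGF receptor gene of endothelium, was at 4.06, 3.69, 3.21 and 2.69 against 5.82, 8.19 and 4.96 (1.64-fold, adjusted p = 0.00913). The groups did not overlap, and tumour-bearing replicate 2 was the highest. The junction genes Cdh5 and Pecam1 rose 1.57-fold and 1.54-fold and Esam by 0.59 on the log2 scale, while the tight junction gene Cldn5 did not pass (11.9 ± 2.15 against 18.6 ± 6.74). Without tumour-bearing replicate 2 only 1 of the 17 was called, without tumour-bearing replicate 1 there were 4 and without tumour-free replicate 4 there were 3.

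Activated endothelium genes were called higher in 5 of 9 cases. Selp, the P-selectin gene that captures leukocytes, gave 1 read in each of the 4 tumour-free libraries, a level of 0.0711 to 0.0830. With tumour it was at 1.99, 2.05 and 1.29 (adjusted p = 2.02e-05). The von Willebrand factor gene Vwf rose 2.40-fold, Lrg1 2.30-fold and the adhesion gene Icam1 2.10-fold. Pericyte and smooth muscle genes were called higher in 4 of 13 cases (1 without tumour-bearing replicate 2), among them Rgs5 (1.46-fold) and the PDGF receptor gene Pdgfrb (1.34-fold, lost in 8 alternatives).

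Basement membrane genes were called higher in 11 of 13 cases and lower in none, with a median log2 change of 0.58 and 6 calls without tumour-bearing replicate 2. Col4a1, a collagen chain of every basement membrane, was at 52.2, 52.8, 48.0 and 44.8 against 162, 218 and 136 (3.37-fold, adjusted p = 4.96e-06). Its partner chain Col4a2 rose 2.55-fold, perlecan (Hspg2) 1.80-fold and the laminin gene Lama4 1.58-fold. In Col4a1, Col4a2 and Hspg2 tumour-bearing replicate 2 was the highest and replicate 3 the lowest.

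Fibroblast and matrix genes went both ways, with 4 of 17 called higher (2 without tumour-bearing replicate 2) and 1 lower. Over all genes 14.4% were called higher and 16.0% lower. Fibronectin (Fn1) rose 2.08-fold and Col6a1 2.01-fold. Dcn, the small proteoglycan decorin of meninges and vessel walls, fell from 19.4, 20.8, 18.4 and 18.7 to 6.85, 9.63 and 7.64, with no overlap (2.26-fold, adjusted p = 0.000118). The fibroblast markers Col1a1 (34.8 ± 2.07 against 37.5 ± 13.1) and Lum (1.71 ± 0.273 against 1.43 ± 0.133) did not pass. Matrix proteases and inhibitors were called higher in 5 of 15 cases and lower in 1. The 5 included the inhibitor gene Timp1 (2.38-fold) and the protease gene Adamts1 (1.59-fold), and the decrease was Mmp9, a gelatinase (1.53-fold). The count of higher calls was 3 without tumour-bearing replicate 1 or 2 or tumour-free replicate 4.

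**Figure D2:**
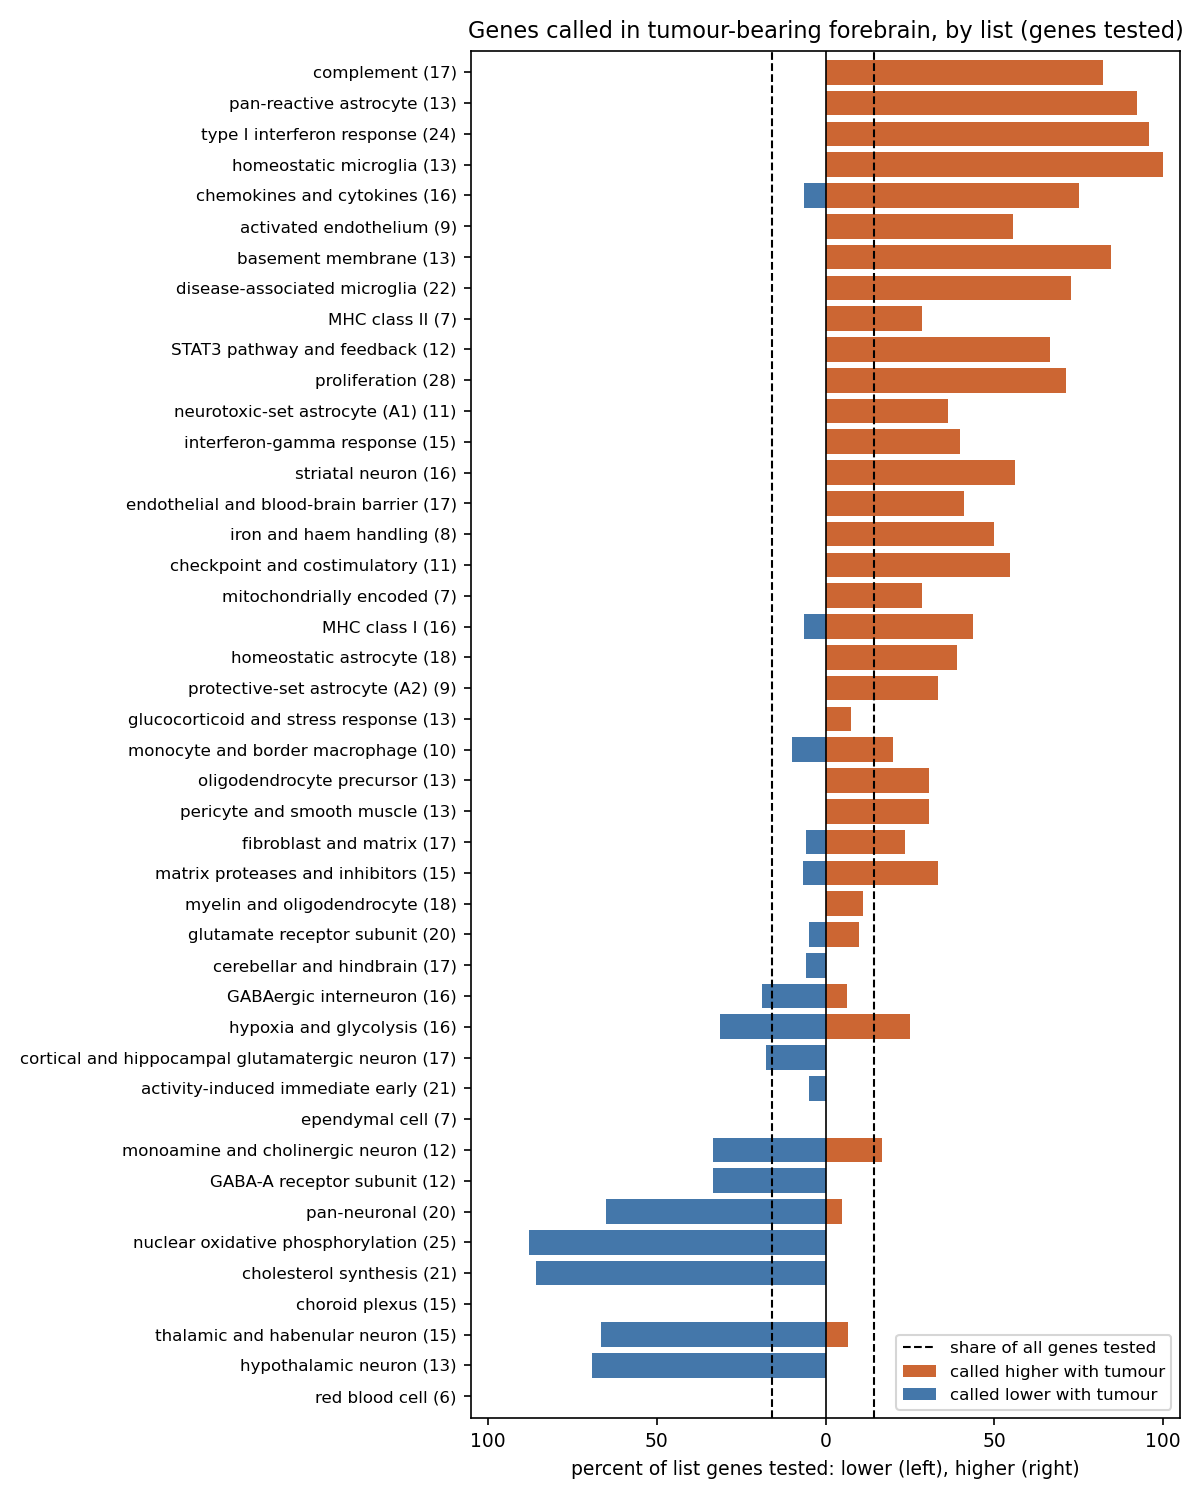
Percent of the tested genes of each list called higher (bars to the right) or lower (bars to the left) in tumour-bearing forebrain, for the lists with at least 5 genes tested, ordered by median log2 change. Dashed lines mark the shares over all genes tested, 14.4% higher and 16.0% lower. Wide bars to the right include those of microglial, pan-reactive astrocyte, type I interferon, complement and basement membrane genes. Wide bars to the left include those of hypothalamic, thalamic, cholesterol and oxidative phosphorylation genes. The red blood cell and choroid plexus lists, near the bottom, have no bar.

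Neuronal genes were grouped by the region whose neurons they mark. Hypothalamic neuron genes were called lower in 9 of 13 cases tested and higher in none, with a median log2 change of -0.86. Pmch, which encodes the feeding peptide melanin-concentrating hormone, fell from 59.6, 59.7, 61.2 and 78.5 to 0.716, 0.313 and 0.301. The tumour-bearing libraries held almost none of it, and the fitted change was 45.6-fold (log2 -5.51 ± 0.14 SE, adjusted p = 1.09e-11). Hcrt, which encodes the wakefulness peptides orexin A and B, was at 11.9, 13.8, 12.7 and 16.3 without tumour and had no read in any tumour-bearing library. The fitted change of Hcrt was 14.6-fold (log2 -3.87, adjusted p = 3.65e-11). Against a floor of 3 reads over the group, a level of 0.0388, its mean level was at least 352-fold lower with tumour. That bound is a ratio of levels without the added 1 and was not tested, so it cannot be set beside the fitted folds. Avp, the vasopressin gene, was at 49.5, 47.2, 74.4 and 25.6 against 6.17, 0.850 and 3.84, and the oxytocin gene Oxt at 26.6 ± 10.5 against 7.99 ± 4.72. Trh, the thyrotropin-releasing hormone gene, fell 2.92-fold. The list median is the same with Hcrt at its bound, and the call for Oxt was lost when only the 2 groups were fitted.

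Thalamic and habenular genes were called lower in 10 of 15 cases and higher in 1, with a median log2 change of -0.72. Slc17a6, the glutamate transporter of thalamic and other subcortical neurons, was at 64.9, 76.9, 72.4 and 92.6 against 29.9, 15.7 and 19.5. No tumour-bearing value reached the tumour-free range (3.51-fold lower, adjusted p = 1.78e-05). Tcf7l2, a transcription factor of thalamic neurons, fell 2.76-fold, Tnnt1 2.63-fold and the diencephalic factor gene Lhx9 2.46-fold. Shox2, a factor of thalamic and midbrain neurons, was at 6.08, 10.2, 11.8 and 19.96 against 4.41, 0.0278 and 0.0367 (adjusted p = 0.00405), so that tumour-bearing replicate 1 retained far more of it than the other 2. Foxp2, the single gene called higher, rose 1.31-fold (adjusted p = 0.0245) and lost its call in 6 alternatives.

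Striatal neuron genes moved the other way, with 9 of 16 called higher, none lower and a median log2 change of 0.44. Drd1, a dopamine receptor gene of striatal projection neurons, was at 27.3, 21.7, 23.7 and 18.8 against 30.1, 38.4 and 41.8 (1.58-fold, adjusted p = 0.0025). The groups did not overlap, although replicate 1 of each lay near the other group. Drd2 rose 1.61-fold, the signalling gene Rgs9 1.51-fold and the phosphodiesterase gene Pde10a 1.75-fold, while Ppp1r1b (DARPP-32) was at 487 ± 59.8 against 637 ± 81.9 (adjusted p = 0.0795). The count was 4 without tumour-bearing replicate 2, and 5 without tumour-bearing replicate 3 or without tumour-free replicate 4.

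Cortical and hippocampal glutamatergic genes were called lower in 3 of 17 cases and higher in none, against 16.0% lower over all genes. They were the vesicular transporter gene Slc17a7 (1.27-fold, 614 ± 34.8 against 483 ± 51.4), Neurod6 (1.40-fold) and Prox1 (1.31-fold), calls lost in 6, 14 and 4 of 21 alternatives. None of the 3 was called without tumour-bearing replicate 2, and 1 of the list was called without tumour-bearing replicate 1 or without tumour-free replicate 2, 3 or 4. Emx1 (12.2 ± 1.51 against 8.44 ± 1.52) did not pass.

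Of 12 monoamine and cholinergic genes, 4 were called lower and 2 higher, against 16.0% lower and 14.4% higher over all genes. Th, the rate-limiting enzyme gene of dopamine synthesis, was at 13.5, 16.0, 10.2 and 8.83 against 3.00, 3.26 and 4.12, with no overlap (2.89-fold lower, adjusted p = 0.00354). The decarboxylase gene Ddc fell 2.14-fold. The dopamine transporter gene Slc6a3 was at 2.53 to 6.44 without tumour and at most 0.0706 with tumour (adjusted p = 0.0401), and the vesicular carrier gene Slc18a2 fell 1.83-fold, calls lost in 11 and 4 alternatives. The acetylcholine genes Chat and Slc5a7 rose 1.36-fold and 1.57-fold and lost these calls without tumour-bearing replicate 2. Without tumour-bearing replicate 2 or 3 or tumour-free replicate 1, the list had 2 lower calls. Of 17 cerebellar and hindbrain genes, 1 was called, Cbln1, a synapse organiser that thalamic neurons also express, which fell 3.08-fold.

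**Figure D3:**
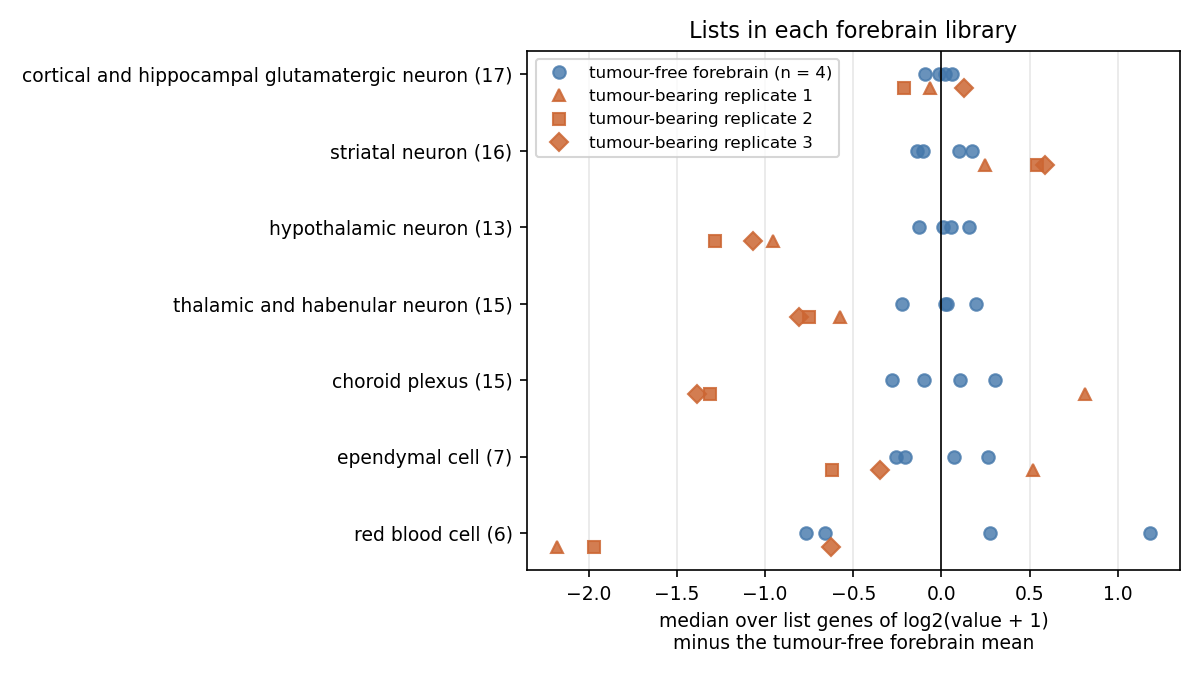
Median over the tested genes of each list (number in brackets) of log2(level + 1) minus the mean of the 4 tumour-free libraries, for each tumour-free (circles) and tumour-bearing (triangle, square and diamond for replicates 1, 2 and 3) forebrain library. Hypothalamic and thalamic medians lie below the tumour-free libraries in all 3 tumour-bearing ones and striatal medians above, while choroid plexus medians are 0.81 in replicate 1 and -1.31 and -1.39 in replicates 2 and 3.

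Genes shared by most neurons were called lower in 13 of 20 cases and higher in 1, with a median log2 change of -0.38. Tubb3, a neuronal tubulin gene, was at 226, 256, 284 and 290 against 148, 140 and 168 (1.73-fold lower, adjusted p = 0.000284), groups that did not overlap. The neuronal hydrolase gene Uchl1 fell 1.56-fold, the neurofilament gene Nefh 1.53-fold and the growth cone gene Stmn2 1.43-fold. Map2, a dendritic cytoskeleton gene, rose 1.30-fold (lost in 7 alternatives). The markers Snap25 (adjusted p = 0.101), Syt1 (0.346), Rbfox3 (0.797) and Gad1 (0.637) did not pass. Rbfox3, which encodes the nuclear marker NeuN, was at 252 ± 17.3 without and 245 ± 19.0 with tumour.

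GABAergic interneuron genes were called lower in 3 of 16 cases and higher in 1. The counts in this paragraph stand beside 16.0% called lower and 14.4% called higher over all genes. Calb2, the calretinin gene, fell 2.77-fold (66.3 ± 15.0 against 24.0 ± 9.66), the cholecystokinin gene Cck 1.40-fold and the parvalbumin gene Pvalb 1.52-fold. The list had 1 lower call without tumour-bearing replicate 2. Reln, the reelin gene, rose 1.32-fold, a call lost in 9 alternatives. GABA-A receptor subunit genes were called lower in 4 of 12 cases and higher in none, led by Gabra5 (1.76-fold, 35.9 ± 2.56 against 20.1 ± 3.37). The list had 1 lower call without tumour-bearing replicate 1 or 2, and 2 without tumour-free replicate 1. Glutamate receptor subunit genes showed 2 higher, Grik3 (1.31-fold) and Grm3 (1.28-fold), and 1 lower, Grik1 (1.32-fold), of 20. The counts were 4 higher and 1 lower without tumour-free replicate 1, and 1 higher and 3 lower with the length trend removed, where Grik3 lost its call. Of 21 activity-induced immediate early genes, 1 was called, Bdnf, a growth factor gene, lower by 1.20-fold (adjusted p = 0.0207), and this was lost in 3 alternatives. The summed level of the list was 427 in tumour-free replicate 1 and 820 to 888 in the other 3. Without that library 3 of the list were called lower and 1 higher, and 7 lower and 1 higher without both that library and tumour-free hindbrain replicate 1.

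Oligodendrocytes wrap axons in myelin. Of 18 myelin and oligodendrocyte genes, 2 were called higher and none lower, near the 14.4% higher over all genes, with a median log2 change of 0.01. Mbp, a major myelin protein gene, was at 1598 ± 211 against 1614 ± 223 and Mog at 78.4 ± 13.8 against 69.1 ± 7.08. The transcription factor gene Myrf (1.33-fold) and the iron carrier gene Trf (1.34-fold, lost in 9 alternatives) were the 2 called, and neither was without tumour-bearing replicate 1 or 2. Oligodendrocyte precursor genes were called higher in 4 of 13 cases, among them the proteoglycan genes Vcan (1.62-fold) and Cspg4 (1.43-fold), while the growth factor receptor gene Pdgfra did not pass (67.6 ± 4.94 against 74.9 ± 6.22).

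Genes of energy and sterol metabolism were mostly lower. Nuclear genes of oxidative phosphorylation were called lower in 22 of 25 cases and higher in none, with a median log2 change of -0.40. Atp5b, the catalytic subunit gene of ATP synthase, was at 2025, 2179, 2337 and 2474 without tumour and at 1626, 1513 and 1673 with tumour. The groups did not overlap and the drop was 1.40-fold (adjusted p = 0.000934). Cox5a, Uqcrc2 and Ndufv1, of complexes IV, III and I, were lower by 1.48-fold, 1.44-fold and 1.41-fold. Of 7 mitochondrially encoded genes tested, 2 were called higher, mt-Cytb (1.41-fold) and mt-Nd4 (1.33-fold). Both calls were lost with quantile normalization and without tumour-bearing replicate 2, and that for mt-Nd4 in 10 of 21 alternatives in all. Under quantile normalization the change of mt-Cytb had the opposite sign.

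Cholesterol synthesis genes were called lower in 18 of 21 cases and higher in none, with a median log2 change of -0.50. Insig1, the sterol-regulated brake on this pathway, was at 37.4, 43.3, 43.5 and 48.6 against 23.2, 19.9 and 25.3, well apart (1.86-fold lower, adjusted p = 5.23e-05). Nsdhl, Mvd and Sqle, enzyme genes of the pathway, were lower by 1.74-fold, 1.60-fold and 1.57-fold. The summed level of the list was 1041 to 1113 without tumour and 717 to 862 with tumour.

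Hypoxia and glycolysis genes were called higher in 4 of 16 cases and lower in 5, against 14.4% and 16.0% of all genes. Hk2, the inducible hexokinase gene, was at 2.20, 3.15, 2.31 and 2.16 against 11.8, 11.3 and 7.64, with no overlap (3.23-fold, adjusted p = 3.05e-05). Pfkfb3, a regulator of glycolytic flux, rose 1.38-fold, the VEGF gene Vegfa 1.29-fold and the glucose transporter gene Slc2a1 1.27-fold. The glycolytic enzyme genes Pgk1, Gapdh and Aldoa fell 1.45-fold, 1.33-fold and 1.33-fold, though Gapdh has many near-identical copies. Without tumour-bearing replicate 2 the counts were 2 higher and 3 lower, and without replicate 1 there were 2 higher. Iron and haem handling genes were called higher in 4 of 8 cases tested, led by Lcn2 and by the haem oxygenase gene Hmox1, at 7.42, 8.67, 11.0 and 10.8 against 43.1, 37.7 and 23.1 (3.33-fold). The iron exporter gene of phagosomes Slc11a1 rose 2.02-fold and ceruloplasmin (Cp) 1.39-fold. Of 13 glucocorticoid and stress response genes, 1 was called, the cell cycle inhibitor gene Cdkn1a (1.67-fold higher).

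Choroid plexus makes cerebrospinal fluid, and its transthyretin gene Ttr was at 232, 655, 836 and 493 without tumour and at 1154, 11.0 and 19.2 with tumour. Replicate 1 of the tumour-bearing group was thus above, and replicates 2 and 3 far below, the tumour-free range. The folate receptor gene Folr1 followed, at 7.23 to 14.4 without tumour and at 11.4, 0.657 and 0.755 with tumour. None of 15 choroid plexus genes was called, with a median log2 change of -0.70, but 9 were called lower without tumour-bearing replicate 1. None of 7 ependymal genes was called. Red blood cell genes had a median log2 change of -1.59 with none of 6 called, and Hbb-bs, a beta globin gene, was at 238, 450, 121 and 99.9 against 35.0, 40.3 and 126. The part of such differences in tissue content in the regional neuron results was not tested. In tumour-bearing replicates 1, 2 and 3 the thalamic list medians from the tumour-free mean were -0.57, -0.75 and -0.81. The hypothalamic ones were -0.96, -1.29 and -1.07. Shox2, Avp, Lhx9, Epn3, Calb2, Slc17a6 and Pmch were higher in replicate 1 than in replicates 2 and 3, while Th was lower. In replicate 1 Pmch and Hcrt were at 0.716 and 0.

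Among the largest increases was Malat1, a long noncoding RNA that stays in the nucleus. It was at 1165, 1269, 734 and 1034 against 5169, 5287 and 4565, with no overlap (4.85-fold, adjusted p = 0.000734). Meg3, a noncoding RNA of neuronal nuclei, was at 1924, 1927, 1734 and 1567 against 3296, 5000.4 and 3193 (2.10-fold). Changes also varied with gene length: among the 1578 genes with the longest transcripts 23.5% were called higher and 4.69% lower, with a median log2 change of 0.10, against 11.2% and 13.2% among the 1578 with the shortest. Relative to each gene's mean over the 7 libraries, the longest genes minus the shortest differed in median log2 level by library. The difference was 0.09, 0.03, -0.14 and -0.21 in tumour-free replicates 1 to 4 and 0.04, 0.08 and 0.09 with tumour. Tumour-free replicates 1 and 2 thus lay nearer the tumour-bearing libraries than replicates 3 and 4 did. Removing each library's trend on length gave 4788 calls. The part of RNA quality or of nuclear RNA in these values was not tested.

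The hindbrain of the same design showed how far the changes were shared. There 512 of 15777 genes were called (3.25%), 460 higher (2.92%) and 52 lower (0.33%), and 417 genes were called higher in both regions, 18.4% of the forebrain calls and 90.7% of the hindbrain calls. Of the 276 genes called higher by at least 2-fold in forebrain 213 were also called higher in hindbrain, whereas of the 46 lower ones 1 was, Capn11, a calpain protease gene. Capn11 was at 6.16 ± 1.08 against 0.805 ± 0.609 in forebrain (4.08-fold) and at 9.52 against 1.42 in hindbrain. Of the microglial list 9 of 13 and of the pan-reactive astrocyte list 12 of 13 were called higher in hindbrain. Of the type I interferon list 13 of 24 were, with a median log2 change of 0.55 against 1.06 in forebrain. No oxidative phosphorylation gene and 2 of the cholesterol genes were called lower there, against 0.33% of all genes. No gene of these 2 lists, or of the microglial and type I interferon lists, was called by the test of the difference between regions. In the pan-reactive astrocyte list that test called 1 gene with a higher and 1 with a lower change in forebrain.

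A direct test of the difference between the forebrain and the hindbrain change called 72 genes (0.456%), 40 with a higher (0.254%) and 32 with a lower (0.203%) change in forebrain. With number-matched fore- and hindbrain libraries as pairs, 47 were called. Leaving out 1 forebrain library gave 248 (tumour-free replicate 1), 27, 23 and 16 (tumour-free replicates 2, 3 and 4), and 42, 15 and 196 (tumour-bearing replicates 1, 2 and 3). Of the 32, 30 were called lower in forebrain, and all 40 were called higher in forebrain. Pmch (difference in log2 change -5.24 ± 0.20 SE, adjusted p = 3.10e-09), Hcrt (-3.93) and Avp (-3.59, adjusted p = 0.0223) led the lower set, and all 3 were at or below 1.54 in every hindbrain library. A fall in hindbrain could thus hardly show for these 3. Slc17a6 (-1.63), the patterning gene Irx2 (-1.71) and the membrane traffic gene Rab37 (-1.66) came next in the lower set. In hindbrain Slc17a6 was at 178 ± 22.3 without and 157 ± 22.5 with tumour.

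The largest positive differences were in Col6a1 (1.43), A2m (1.42), Hk2 (1.36), Tfcp2l1 (1.34), Meg3 (1.16) and Robo3 (1.12). A2m, a broad protease inhibitor gene, was at 2.18, 3.92, 3.41 and 3.49 without tumour and at 22.0, 16.3 and 11.4 with tumour in forebrain, where the groups did not overlap. In hindbrain it was at 26.7 ± 2.76 and 41.2 ± 3.82. Tumour-free forebrain thus had the lowest A2m level of the 4 groups. Robo3, an axon guidance receptor gene, was at 3.51 ± 0.263 against 7.23 ± 1.99 in forebrain, and the transcription factor gene Tfcp2l1 at 2.32 ± 0.243 against 7.26 ± 2.07. Of these 6 differences, 4 to 12 of the alternatives ended the call, as did leaving out tumour-free forebrain replicate 4 for each.

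**Figure D4:**
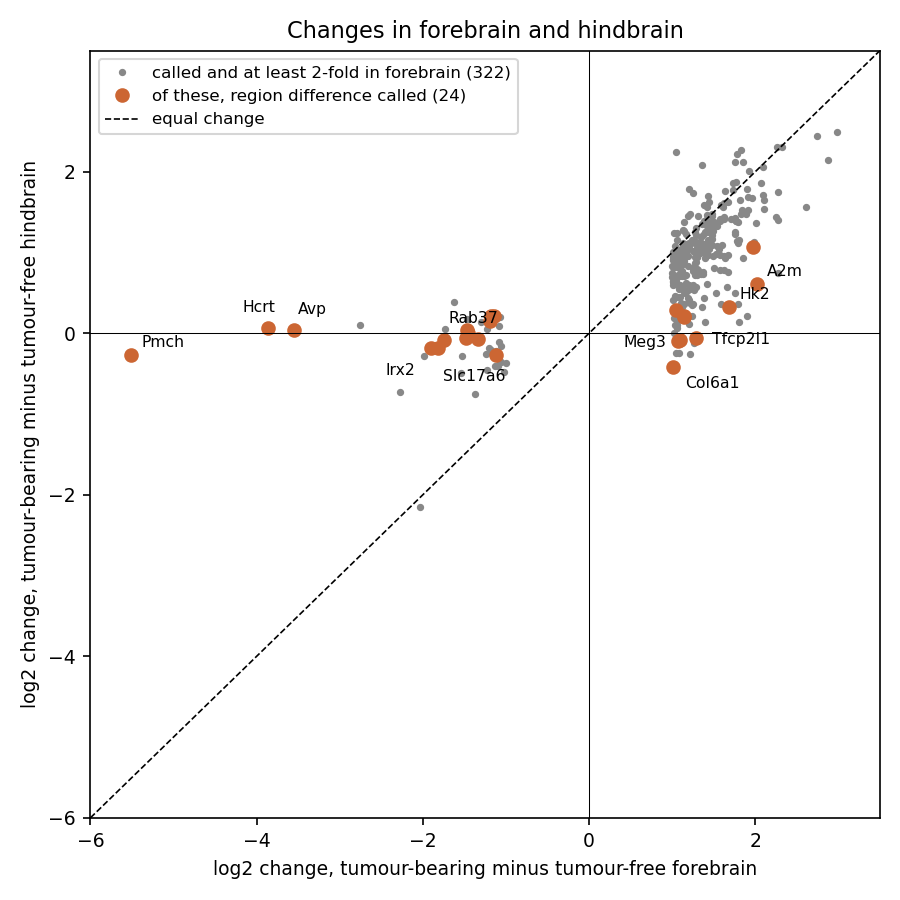
Log2 change with tumour in forebrain (horizontal axis) and hindbrain (vertical axis) of the 322 genes called with at least a 2-fold change in forebrain (grey), with the 24 of these whose difference between regions was called in orange. Many increases lie near the dashed line of equal change and others below it, such as C4b at 2.62 and 1.57. Most decreases lie near a hindbrain change of 0. The genes shown were chosen by their forebrain change.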

How the data were processed

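RPKM values per mouse gene are as the authors deposited them. Reads were mapped to mm10 and hg38 (GRCm38 and GRCh38), per the submitters' processing notes. No aligner or counter is named in the labels read here. Mouse positions and promoters are not analysed here. RPKM was rescaled to a sum of 1000000 per library. Genes at 1 or more in at least 3 of the 14 brain libraries were tested on log2(value + 1) by limma's moderated test (trend, robust spread), in 1 fit of the 4 brain groups. P values are two-sided, adjusted by Benjamini and Hochberg over all genes, and a call is an adjusted p below 0.05. Lists were described by counts and medians. Where 2 Ensembl genes shared a symbol, the one with the higher mean was used.

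RPKM values are whole multiples of 1 read, and reads were recovered for 28402 of 32644 mouse genes above 0 (87.0%, within 0.02 of a whole number), giving the depths and an alternative with voom. The transcript lengths behind RPKM were whole numbers of bases or whole numbers plus 0.5 (80.3 and 19.7% of genes, within 0.02 bases), so they look like medians over transcripts, and levels are compared within genes only.

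The genes, 47 lists and alternatives were chosen with earlier results of these data known. Named were the 12 largest changes per direction with a group mean of 5 or more, no overlap between groups and under 10% of reads expected from human RNA, up to 4 of the largest calls per list and direction, fixed markers, and the 6 largest region differences per direction. Not every gene so chosen is printed, and some are not reported here. Forebrain and hindbrain libraries with tumour and of equal number deviated together (r = 0.24, 0.38 and 0.44), and the labels do not state a shared animal. No replicates were duplicates (chi-square per degree of freedom 9.38 to 39.8). The calculations were also run on simulated reads of independent libraries. That setting lacks the shared deviations above, so it cannot vouch for the calls in these data. R 4.3.3, limma 3.58.1, Python 3.11.15, NumPy 2.4.6, pandas 2.3.3 and matplotlib 3.10.9 were used.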

Additional observations from a re-analysis of the deposited data

Results flagged for a closer look

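Among the 4 tumour-free forebrain libraries, 1 library stood far from the other 3 in 13 of the 186 named genes. The measure was its gap to the nearest library as a share of the group's range. With 4 libraries, chance flags about 1 in 20 groups, and 13 of 186 is near that rate. The share was 0.986 for Grik1, 0.943 for Hspg2, 0.917 for Pcp2, 0.916 for Pmch, 0.894 for Mki67, 0.887 for P2ry12, 0.877 for Tmem119, 0.858 for Icam1, 0.845 for Hk2 and 0.842 for Osmr. It was 1 for Cd3e, Hoxb5 and Ly6g, each with 1 or 2 reads in 1 library and listed at 0 in the other 3. For Pmch the library apart was replicate 4 (78.5), which lay further from the tumour-bearing values than the others. For Tmem119 it was replicate 3 (32.9), still below every tumour-bearing library.

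The change with tumour differed between forebrain and hindbrain in 18 named genes by the test of the difference itself, given here as forebrain minus hindbrain log2 change. The difference was negative in Pmch (-5.24), Hcrt (-3.93), Avp (-3.59), Irx2 (-1.71), Rab37 (-1.66), Slc17a6 (-1.63), Calb2 (-1.51), Dcn (-1.40) and Stmn2 (-0.51). It was positive in Col6a1 (1.43), A2m (1.42), Hk2 (1.36), Tfcp2l1 (1.34), Meg3 (1.16), Robo3 (1.12), Cxcl10 (0.90), Ighm (0.79) and Grm3 (0.52). The calls for Pmch, Hcrt, Slc17a6 and Dcn held in each of the 20 alternatives that give a region difference, and those for the others were lost in 2 to 12. Pmch, Hcrt and Avp were at or below 1.54 in every hindbrain library, so a fall there could hardly show. For these genes the difference restates the forebrain fall.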

How the results depend on the processing

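The count of forebrain calls was between 3753 and 6164 over the alternatives that kept all libraries, and between 2353 (without tumour-bearing replicate 2) and 4976 (without tumour-free replicate 1) when 1 library was left out. Higher calls were 1183 to 2245 and lower calls 1170 to 2732 with 1 library left out. Calls of at least 2-fold numbered 619 with a pseudocount of 0.1 and 638 with voom on recovered reads. Hindbrain calls numbered 294 with a filter of at least 5, 824 with library weights and 853 without tumour-free libraries of number 1. Calls of the region difference numbered 30 with no filter, 129 with quantile normalization, 660 with library weights, 174 with voom, 631 without tumour-free libraries of number 1, and 15 to 248 with 1 library left out; the cause was not tested.

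With the replicate number as a block, 3753 forebrain genes were called. The 47 region differences under this setting came from a separate fit of number-matched forebrain and hindbrain pairs. The numbers did not pair the forebrain groups (r = -0.17, 0.06 and -0.13 between same-numbered libraries). Under quantile normalization the log2 change of mt-Cytb was -0.015. Without tumour-bearing replicate 2, 149 of the named genes kept their call or lack of one and 32 lost their call. With a filter of at least 5 the counts were 3 for proliferation, 4 for chemokines and cytokines and 2 for activated endothelium, since fewer genes were tested. Red blood cell genes had 4 called lower with library weights. The removal of the length trend was chosen after seeing the data. Low genes are limited by depth, which was lower without tumour.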
